A study of Mus musculus with 4 samples.

Results

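Transcripts of the chaperonins were followed in mouse embryonic fibroblasts (MEFs) with and without Pf1. The set was defined by gene symbol, with earlier results of these data known, as the 8 subunits of the cytosolic chaperonin CCT (Tcp1, Cct2, Cct3, Cct4, Cct5, Cct6a, Cct7 and Cct8) and the mitochondrial chaperonin pair Hspd1 (Hsp60) and Hspe1 (Hsp10). All 10 genes had probe sets in the platform annotation, 28 probe sets in all, out of 18193 genes and 34945 probe sets with 1 gene name. MEFs are primary cultures grown from dispersed embryo torsos, here of embryonic day 13.5 or 14.5 and kept at 6% oxygen, and RNA was taken at passage 2 to 3. The knockout group (Pf1 -/-) held lines 2 and 4 and the wild-type group (+/+) lines 5 and 6, with 1 Affymetrix array per line. Phf12 encodes Pf1, a PHD finger protein that works in histone deacetylase complexes built on Sin3. The labels name no other allele, agent or Cre driver, and do not assign an embryonic day or a passage to any line. Nor do they state that the lines are from different embryos, so the spread between these 4 lines may be technical. The p-values rest on that spread for each gene, drawn by limma toward the spread typical of all genes.

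CCT, also called TRiC, is a double ring in which each ring holds 1 copy of each of the 8 subunits, and it closes over newly made proteins to let them fold with the help of ATP. Actin and tubulin are its best known clients, and prefoldin hands them over to it. Hsp60 forms a separate barrel in the mitochondrial matrix, which Hsp10 caps as a lid, and folds proteins after their import. The CCT subunit genes are scattered over the genome, whereas Hspd1 and Hspe1 stand head to head.

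The deposited values were log2 values centred per probe set, so that the median of each probe set over the 4 arrays was 0. A value therefore tells only whether a line was above or below the others for that probe set, and levels of different genes, or of different subunits, cannot be compared. Throughout, a difference is the mean of the knockout lines minus the mean of the wild-type lines on the log2 scale, with the standard error (SE) of the limma fit and n = 2 lines per genotype. A gene was called at a limma adjusted p under 0.05 (Benjamini-Hochberg over all 18193 genes).

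Hspd1 (1.44-fold) and Cct6a, the subunit CCT zeta (1.43-fold), were the members that rose, and none fell. Cct3, Cct4, Cct5, Cct7, Cct8 and Hspe1 were also higher in both knockout lines than in both wild-type lines, by smaller amounts that did not pass the test. Tcp1 (CCT alpha) and Cct2 (CCT beta) had differences close to 0, at -0.024 and -0.0077. In all, 2 of 10 members were called higher and 0 lower, against a background of 12.2% of all genes called in either direction, 5.21% higher and 6.95% lower. Before adjustment, 4 of 10 members and 29.5% of all genes had a limma p under 0.05. The median difference was 0.20 over the 8 CCT subunits and 0.38 over Hspd1 and Hspe1, against -0.0027 over all genes.

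**Figure D1:**
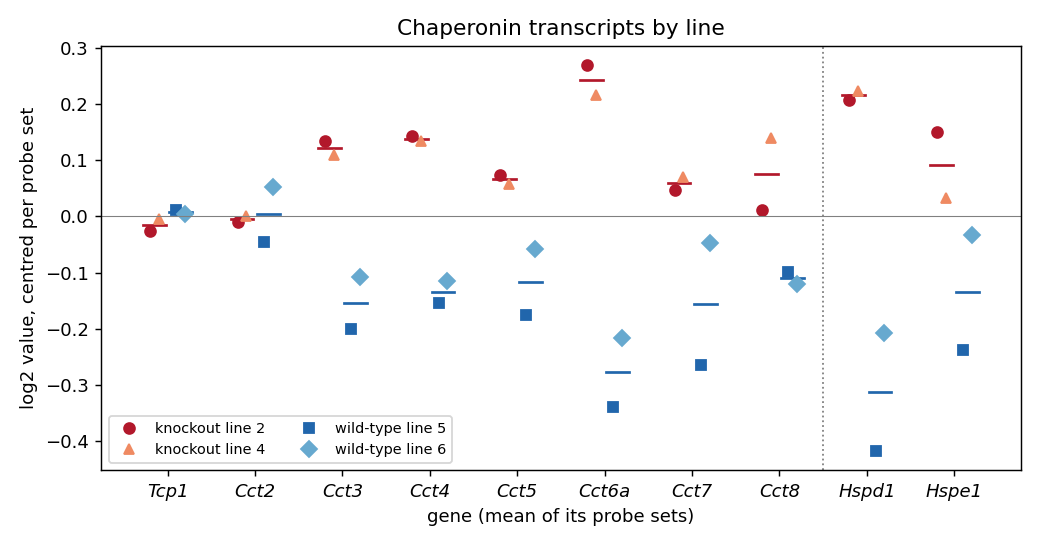
Log2 value (vertical axis, centred per probe set, mean of the probe sets of a gene) of each chaperonin gene in each line; short lines are the means of the 2 knockout lines (red) and the 2 wild-type lines (blue), and the dotted line parts CCT from Hspd1 and Hspe1. For 8 genes both knockout lines lie above both wild-type lines, while Tcp1 and Cct2 lie close to 0 in all 4 lines.

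The mitochondrial pair was examined with its promoter, because part of it serves both annotated starts. On GRCm38.p6, Hspd1 lies at chr1:55077833-55088243 and Hspe1 at chr1:55088148-55091317, so that their annotated spans overlap by 96 bases. RefSeq has Hspd1 starts at 55088243 and 55087932 on the minus strand and an Hspe1 start at 55088148 on the plus strand. The inner Hspd1 start and the Hspe1 start are 216 bases apart, and 285 of the 300 bases of their promoter windows are the same DNA. The windows below run from 250 bases before a start to 50 bases after it, from RefSeq (GRCm38.p6), 5′ to 3′ on the strand of the gene. For the mitochondrial pair, the Hspe1 window and the outer Hspd1 window are shown, which share 4 bases. The inner Hspd1 window is not printed, as 285 of its bases are in the Hspe1 window, on the other strand. The window of Cct6a is shown because this subunit rose, and that of Tcp1 because it did not. Capitals mark every match to TTCNNGAA or GAANNTTC (the palindromic cores of a heat shock element, the site of Hsf1), to CACGTG (the E-box bound by Myc and related factors) and to CCAAT on either strand.
Hspe1, plus strand, chr1:55087898-55088197: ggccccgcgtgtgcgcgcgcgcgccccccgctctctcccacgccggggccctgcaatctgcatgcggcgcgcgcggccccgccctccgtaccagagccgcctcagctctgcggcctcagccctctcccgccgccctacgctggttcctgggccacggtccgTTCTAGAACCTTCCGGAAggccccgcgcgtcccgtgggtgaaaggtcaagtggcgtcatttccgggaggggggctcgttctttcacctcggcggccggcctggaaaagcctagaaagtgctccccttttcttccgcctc
Hspd1, outer start, minus strand, chr1:55088194-55088493: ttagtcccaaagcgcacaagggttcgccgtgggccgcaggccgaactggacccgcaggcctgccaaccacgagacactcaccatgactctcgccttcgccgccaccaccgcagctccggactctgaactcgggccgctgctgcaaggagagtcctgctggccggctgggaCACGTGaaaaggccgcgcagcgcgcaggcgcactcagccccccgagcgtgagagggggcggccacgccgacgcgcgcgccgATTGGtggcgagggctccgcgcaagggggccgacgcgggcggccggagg
Cct6a, plus strand, chr5:129787106-129787405: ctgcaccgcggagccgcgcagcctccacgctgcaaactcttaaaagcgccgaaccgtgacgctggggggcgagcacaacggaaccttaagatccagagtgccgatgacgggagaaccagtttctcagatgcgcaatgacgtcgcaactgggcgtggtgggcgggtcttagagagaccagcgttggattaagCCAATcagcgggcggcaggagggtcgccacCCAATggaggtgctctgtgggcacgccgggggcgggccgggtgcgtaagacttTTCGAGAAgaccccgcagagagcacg
Tcp1, plus strand, chr17:12916079-12916378: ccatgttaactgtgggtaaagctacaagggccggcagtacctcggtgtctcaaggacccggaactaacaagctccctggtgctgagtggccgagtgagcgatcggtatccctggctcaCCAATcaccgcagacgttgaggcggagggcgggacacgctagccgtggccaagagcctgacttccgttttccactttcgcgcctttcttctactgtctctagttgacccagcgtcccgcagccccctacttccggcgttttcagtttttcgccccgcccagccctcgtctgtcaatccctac

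In the Hspe1 window, TTCTAGAA began 89 bases and TTCCGGAA 79 bases before the start, joined by an overlapping GAACCTTC, and the same run lies in the window of the inner Hspd1 start. The outer Hspd1 window held the only CACGTG among the member windows, 80 bases before the start. The Cct6a window held TTCGAGAA 24 bases after the start and CCAAT at 59 and 29 bases before it, and the Tcp1 window held CCAAT at 132 bases before the start. Of the 10 members, 9 had windows in the table (12 windows), and Cct4 had none. TTCNNGAA was found in 4 of 12 windows (Hspd1, Hspe1, Cct5 and Cct6a) and GAANNTTC in 3 of 12 (Hspd1, Hspe1 and Cct2). Of all 32851 windows of the same length, 8.52% and 7.86% had a match. The matches of Hspd1 and Hspe1 are the same DNA, so they are not independent counts. Among the genes with these matches, Hspd1 and Cct6a were called, and Hspe1, Cct5 and Cct2 were not. CACGTG was in 1 of 12 and CCAAT in 5 of 12 member windows, against 7.15% and 37.4% of all windows. A match describes the letters only.

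Hspd1, the Hsp60 barrel, was measured by 1 probe set. It read 0.21 (line 2) and 0.22 (line 4) without Pf1, and -0.42 (line 5) and -0.21 (line 6) with it. The groups did not overlap, and the wild-type lines lay further apart than the knockout lines. The difference was 0.53 ± 0.103 SE, or 1.44-fold (95% interval 0.26 to 0.79, limma adjusted p = 0.0383). Among all genes, 94.7% had a lower difference. In the fit over all probe sets, where the adjustment runs over 45037 probe sets, the same values just missed the threshold (probe set 1426351_at, limma adjusted p = 0.0517).

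Hspe1, the Hsp10 lid, read 0.15 (line 2) and 0.032 (line 4) without Pf1, and -0.24 (line 5) and -0.032 (line 6) with it. Knockout line 4 and wild-type line 6 were thus only slightly apart, and most of the difference came from the other lines. The difference was 0.23 ± 0.108 SE (95% interval -0.052 to 0.50, limma adjusted p = 0.249). Its probe sets 1422579_at and 1450668_s_at gave 0.24 and 0.21, so they differed little from each other. Within each array, Hspd1 minus Hspe1 was 0.057 and 0.19 in the knockout lines and -0.18 and -0.17 in the wild-type lines, a difference of 0.30, and the genotypes did not overlap. An exact permutation test of 2 lines against 2 cannot give a two-sided p below 0.333, so this ratio is given as a description.

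Among the CCT subunits, Cct6a at chr5:129787356-129846443 had the largest gene mean difference over all probe sets. With probe sets ending in _s_at, _x_at or _a_at left out, that of Cct4 was larger (0.59 against 0.50). Without Pf1, Cct6a read 0.27 (line 2) and 0.22 (line 4), and with Pf1 -0.34 (line 5) and -0.22 (line 6). Both knockout lines were high and both wild-type lines low. The Cct6a difference was 0.52 ± 0.089 SE, or 1.43-fold (95% interval 0.29 to 0.75, limma adjusted p = 0.0308), with 94.6% of genes below it. Both probe sets of Cct6a were called in the fit over all probe sets, 1423517_at at 0.50 (limma adjusted p = 0.0466) and 1455988_a_at at 0.54 (limma adjusted p = 0.0383).

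Cct3 (CCT gamma), at chr3:88297135-88321766, read 0.13 and 0.11 in the knockout lines and -0.20 and -0.11 in lines 5 and 6 of the wild type. The difference was 0.28 ± 0.0841 SE (95% interval 0.061 to 0.49, limma adjusted p = 0.101). All 7 of its probe sets had both knockout lines above both wild-type lines, against 27.8% of all probe sets. They read the same gene on the same arrays and are not replicates. Their differences ran from 0.086 (1439679_at) to 0.42 (1448178_a_at), and none was called, with 4 of 7 at an unadjusted p under 0.05 (limma).

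Cct4 (CCT delta), at chr11:22990593-23003336, had the least uniform probe sets. Probe set 1430034_at read 0.76 (line 2) and 0.60 (line 4) without Pf1, and -0.67 (line 5) and -0.60 (line 6) with it. This is a difference of 1.32 ± 0.105 SE, or 2.49-fold, with limma adjusted p = 0.0126. All other Cct4 probe sets, 6 in number, ran from -0.085 (1456572_x_at) to 0.40 (1415868_at), and none of them was called. The Cct4 gene mean of 0.27 ± 0.0794 SE (limma adjusted p = 0.0908) therefore leaned on 1 probe set. Without 1430034_at, their mean was 0.040 and 0.057 in the knockout lines and -0.068 and -0.034 in lines 5 and 6, a difference of 0.10 (limma adjusted p = 0.485). In the platform annotation, 1415867_at and 1415868_at carry a RefSeq accession, and 1430034_at and the remaining 4 do not. The position of 1430034_at within Cct4 was not analysed here, and whether it reads the same transcript as the others was not tested.

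Cct8 (CCT theta), at chr16:87483325-87495869, also had probe sets that disagreed. Probe set 1415785_a_at read 0.16 and 0.20 in the knockout lines and -0.29 and -0.16 in lines 5 and 6, a difference of 0.41 (limma adjusted p = 0.0699). Probe set 1436973_at read -0.14 and 0.076 against 0.088 and -0.076, overlapped between the genotypes and differed by -0.039. Their mean gave 0.18 ± 0.0884 SE for the gene (95% interval -0.042 to 0.41, limma adjusted p = 0.249). The sign of the Cct8 difference thus depended on which probe set was read.

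Cct7 (CCT eta), at chr6:85451505-85468477, read 0.046 and 0.071 in the knockout lines and -0.26 (line 5) and -0.046 (line 6) in the wild type. Its difference of 0.21 ± 0.104 SE (95% interval -0.054 to 0.48, limma adjusted p = 0.256) was nearly the gap of 0.22 between the wild-type lines. Cct5 (CCT epsilon), at chr15:31590800-31601846, was read by 1 probe set, at 0.074 and 0.058 against -0.18 and -0.058. The difference was 0.18 ± 0.0868 SE (95% interval -0.040 to 0.41, limma adjusted p = 0.246). For both subunits wild-type line 5 was the low array. Line 6 lay closer to the knockout lines than to line 5 for Cct7, and about midway for Cct5.

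Tcp1, at chr17:12916329-12925067, was read by 1 probe set that hardly varied, at -0.026 and -0.0050 without Pf1 and 0.012 and 0.0050 with it. Its difference was -0.024 ± 0.0787 SE (95% interval -0.23 to 0.18, limma adjusted p = 0.889). Cct2, at chr10:117050997-117063852, read -0.0091 and 0.0011 against -0.046 and 0.053, and the genotypes overlapped in all 3 of its probe sets. The Cct2 difference was -0.0077 ± 0.0844 SE (95% interval -0.22 to 0.21, limma adjusted p = 0.97). The upper bounds of both intervals lie below the lower bound for Cct6a (0.29). Cct6a had the largest and Tcp1 and Cct2 the lowest differences among the CCT subunits, so this gap between extremes is no test. Within each array, Cct6a minus Tcp1 was 0.30 and 0.22 in the knockout lines and -0.35 and -0.22 in the wild-type lines, a difference of 0.54, and Cct6a minus Cct2 differed by 0.53. Both ratios are likewise descriptions. In the RefSeq annotation, Mrpl18 and Acat3 overlap the ends of Tcp1, by 1459 and 1238 bases, and Psph overlaps the start of Cct6a by 88 bases. The printed windows of Tcp1 and Cct6a lie within the spans of Mrpl18 and Psph. Pradc1 and Usp16 overlap Cct7 and Cct8, by 483 and 191 bases. The snoRNA genes Snora20 and Snora15 lie within the spans of Tcp1 and Cct6a.

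**Figure D2:**
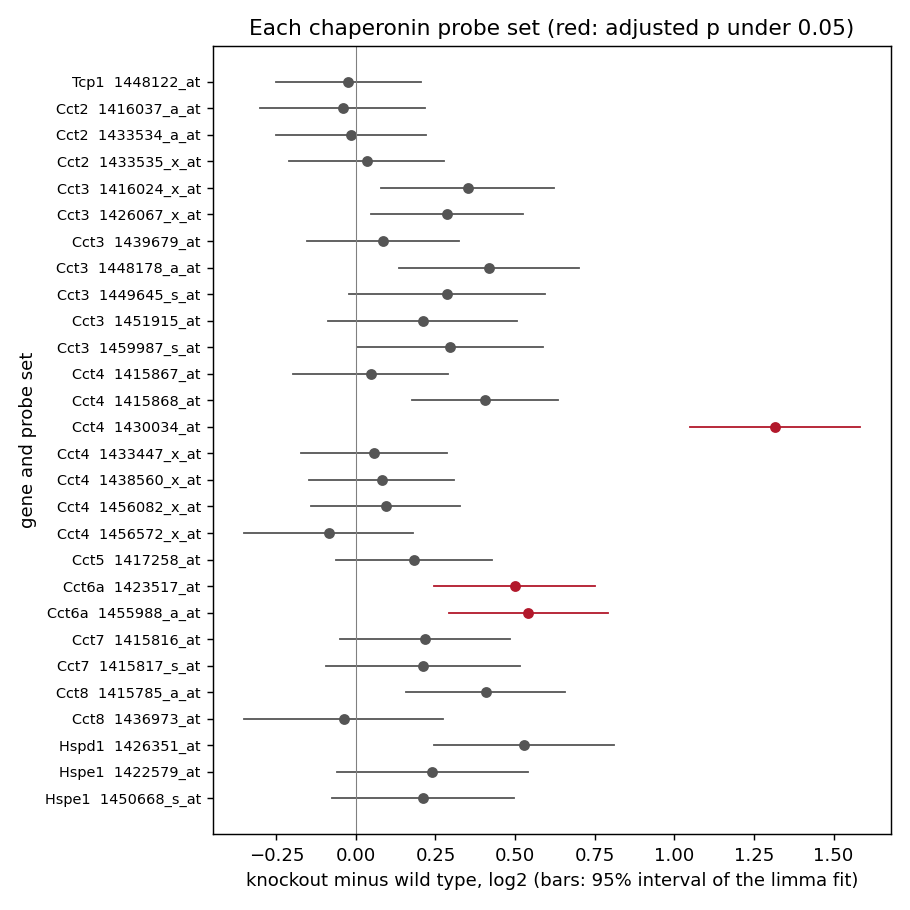
Difference of each of the 28 chaperonin probe sets (horizontal axis, knockout minus wild type, log2), with the 95% interval of the limma fit over all probe sets as bars; red marks an adjusted p under 0.05. The called probe sets are 1430034_at of Cct4 and both of Cct6a, and the Cct4 probe set lies far to the right of the other 6 of that gene.

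By probe set, 3 of 28 were called higher and 0 lower, against a background of 8.32% called in either direction and 3.92% called higher. Both knockout lines were above both wild-type lines in 21 of 28 probe sets and below them in 1, against 27.8% of all probe sets above. Of these 21, Cct3 gave 7 and Cct4 gave 5, and probe sets of 1 gene are not independent counts. By gene, both knockout lines were above both wild-type lines in 8 of 10 members, below in 1 (Tcp1) and overlapping in 1 (Cct2), whereas 28.7% of all genes were above and 29.5% below. The CCT subunits work in 1 complex and were measured on the same 4 arrays, so they are not independent counts. Wild-type line 5 was the lowest of the 4 lines in 8 of 10 members, against 30.4% of all genes. The median over the 8 CCT subunits was 0.060 (line 2) and 0.090 (line 4) without Pf1, against -0.16 (line 5) and -0.083 (line 6) with it.

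**Figure D3:**
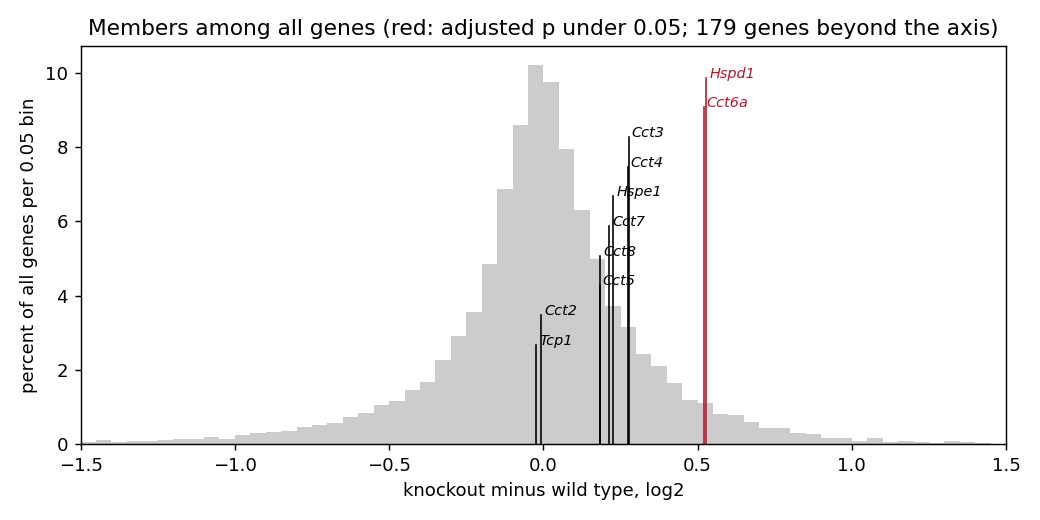
Histogram of the knockout minus wild-type difference (horizontal axis, log2) over 18193 genes as a percent of genes per bin of 0.05, with the 10 chaperonin genes marked by lines whose heights only separate the names; 179 genes lie beyond the axis. Cct6a and Hspd1, in red, are called and lie at 0.52 and 0.53, while Tcp1 and Cct2 lie at the centre.

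Leaving out any 1 line removed the calls. Without knockout line 2, knockout line 4, wild-type line 5 or wild-type line 6, limma called 0 members, of which 2, 2, 3 and 6 had an unadjusted p under 0.05. Over all genes it then called 0, 321, 1 and 0, with 3296, 3717, 4486 and 5418 at an unadjusted p under 0.05 and 1 residual degree of freedom. The genotype left with 1 line is assumed to vary like the other. The Cct6a difference then lay between 0.46 and 0.58 (limma adjusted p between 0.0618 and 0.182) and that of Hspd1 between 0.42 and 0.63 (limma adjusted p between 0.0562 and 0.191). The Hspe1 difference was 0.12 without wild-type line 5 and that of Cct7 0.11, against 0.33 and 0.32 without wild-type line 6. That of Cct8 was 0.12 without knockout line 4.

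The partners of CCT were examined next, from lists of related genes. Over all genes, 5.21% were called higher and 6.95% lower. Both knockout lines were above both wild-type lines in 28.7% of all genes and below in 29.5%. Of 6 prefoldin subunits, 1 rose and 5 did not pass, with both knockout lines above both wild-type lines for 4 and below for 1, and a median difference of 0.33. Pfdn2 rose by 0.58 ± 0.11 SE (limma adjusted p = 0.0365), and Pfdn4 stood at 0.58 (limma adjusted p = 0.0573). Of 5 phosducin-like and other CCT cofactors, Pdcl3, which binds CCT, rose by 0.70 ± 0.0887 SE (1.63-fold, limma adjusted p = 0.0184), and 4 did not pass. Both knockout lines were above both wild-type lines for 3 of the 5 and below for 1, Pdcl2 (-0.35, limma adjusted p = 0.136). Pdcl3 read 0.38 and 0.31 without Pf1 and -0.41 and -0.31 with it. The groups lay well apart. Another list held 7 genes of the R2TP and prefoldin-like complexes, which assemble larger machines with the Ruvbl ATPases. Of these, Pdrg1 rose by 0.66 (limma adjusted p = 0.0192), 6 did not pass, and the median was 0.050. Both knockout lines were above both wild-type lines for 3 and below for 2. Among the latter was Pih1d1, at -0.33 (limma adjusted p = 0.0597). The chaperonin relatives Cct6b, Cct8l1, Mkks, Bbs10 and Bbs12 were all uncalled (limma, 0 of 5, and 0 at an unadjusted p under 0.05; 0 separated by genotype), with differences between -0.069 and 0.088.

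The clients and the later steps of tubulin folding gave 1 call, against 5.21% of all genes called higher and 6.95% lower. Of 15 measured actin, tubulin and other client genes, 1 rose, 0 fell and 14 did not pass, with a median of 0.062. Tuba4a, an alpha-tubulin, rose by 0.59 (limma adjusted p = 0.0295). Both knockout lines were above both wild-type lines for 8 of the 15 and below for 4, against 28.7% and 29.5% of all genes. Among beta-tubulin genes, Tubb2b, Tubb2a and Tubb5 stood at -0.39, -0.23 and -0.18, lower in both knockout lines. Tubb4b and Tubb6 stood at 0.11 and 0.12, higher in both, and Tubb3 overlapped. None of these beta-tubulin genes passed. Tubulin folding cofactors had 0 of 7 called by limma (0 at an unadjusted p under 0.05), with differences between -0.15 and 0.16.

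In mitochondria, Grpel1, a nucleotide exchange factor of the matrix Hsp70, rose by 0.65 ± 0.114 SE (1.57-fold, limma adjusted p = 0.0319). It read 0.25 and 0.28 without Pf1 and -0.52 (line 5) and -0.25 (line 6) with it. Here too the groups were apart and line 5 was lowest. Of the 13 measured chaperones and proteases, 12 did not pass. The list's median was -0.051. Both knockout lines were above both wild-type lines for 4 of its 13 genes and below for 3. Among the latter was Hscb, at -0.32 (limma adjusted p = 0.181). Grpel2 and Hspa9, on the same list, stood at 0.19 and -0.064 and were not called. Over all genes, 28.7% were above and 29.5% below, and 5.21% were called higher and 6.95% lower. Of 3 measured transcription factors linked to mitochondrial stress, Cebpb fell by 1.06 (limma adjusted p = 0.0322) and Atf5 fell by 0.56 (limma adjusted p = 0.0378), while Ddit3 stood at -0.27.

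The cytosolic heat shock list, which was also the longest, had the most calls of the related lists. By share, the 3 measured mitochondrial stress factors had more, with 2 called lower. Of 24 measured genes, 8 rose, 0 fell and 16 did not pass, against 5.21% of all genes called higher and 6.95% lower. The median was 0.34. Hspb1, a small heat shock protein that binds unfolded proteins, rose by 0.85 ± 0.083 SE (1.81-fold, limma adjusted p = 0.0147). It read 0.41 in both knockout lines and -0.49 and -0.40 with Pf1. Chordc1, a cochaperone of Hsp90, rose by 0.89 ± 0.0973 SE (limma adjusted p = 0.016), and the Hsp70 cochaperones Dnaja1 and Dnajb4 rose by 0.65 and 0.63. Among the genes not called, Dnajb1 and Hspb8 stood at 0.065 and 0.023. Hspa1a, an inducible Hsp70, was the member that lay lower in both knockout lines (-0.73, not called), and Hspa1b, its near-identical copy, stood at -0.066. Transcripts of such copies may not be told apart by the probes.

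**Figure D4:**
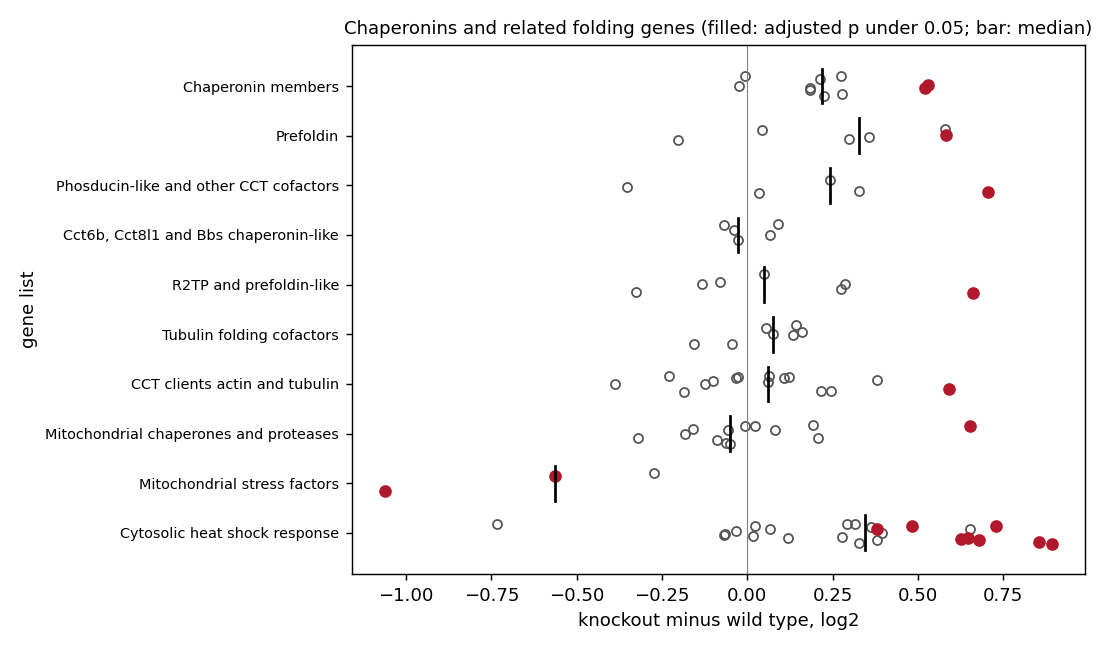
Difference of each gene (horizontal axis, knockout minus wild type, log2) in the chaperonin set and in 9 lists of related genes, with filled points for an adjusted p under 0.05, open points for the rest and a bar for the median of each list. Heat shock genes and prefoldin lie mostly to the right of 0, the chaperonin relatives around it, and Cebpb and Atf5 to the left.

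By closeness of profile over the 4 arrays (Euclidean distance of values centred on the mean of each gene), the genes nearest to the mean of the 8 CCT subunits were Zc3h14, Olfr15, F2r, Ccz1 and Zfp773, at distances of 0.014 to 0.017. Nearest to the mean of Hspd1 and Hspe1 were Kdm8, Csnk2a2, Vcl, Wbp11 and Tug1, at 0.012 to 0.024. The measure rests on 4 arrays and is a description.

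The check of the labels rested on Phf12, which was lower in the knockout lines in probe set 1434922_at (log2 difference -0.86, limma adjusted p = 0.0213) and not in 1453579_at (0.012). Because the values are centred, presence of fibroblast markers could not be tested. Of all genes, 5.21% were called higher and 6.95% lower. Between the genotypes, 6 of 10 fibroblast markers fell (median -0.55) and 8 of 10 smooth muscle and myofibroblast markers rose (median 0.79), while 2 of 10 epithelial markers rose and 1 fell, 1 of 9 endothelial markers rose and 2 fell, 1 of 10 skeletal muscle markers rose (Des is on both muscle lists) and 0 of 11 macrophage markers were called by limma (0 at an unadjusted p under 0.05). The macrophage markers differed between the lines within each genotype. Against the wild-type mean, the median of these markers was 0.013 (line 2), 0.79 (line 4), 0.85 (line 5) and -0.85 (line 6). Proliferation markers had 0 of 11 called by limma (4 at an unadjusted p under 0.05, against 29.5% of all genes). Of these markers, 7 of 11 lay higher in both knockout lines than in both wild-type lines, against 28.7% of all genes. Their median difference was 0.34. Against the wild-type mean, their median was 0.14 (line 2), 0.34 (line 4), -0.15 (line 5) and 0.15 (line 6), so that line 5 was lowest there too. The difference between the 3′ and 5′ control probe sets of Gapdh lay between -0.023 and 0.053 in all lines, and that of Tfrc was -0.49 in wild-type line 5 against -0.020 to 0.11 in the others. For 18S ribosomal RNA, the mean of the controls was 0.64 (line 2), 0.070 (line 4), -0.070 (line 5) and -0.77 (line 6). The part of these shifts in the chaperonin differences was not tested, and in bulk RNA fewer cells of a type and less RNA per cell cannot be told apart.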

How the data were processed

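Total RNA of 4 MEF lines was labelled with biotin and hybridised to Affymetrix arrays, per the labels' protocols. The series text names the 430A 2.0 array, but the deposited table held 45101 probe sets and was named through the annotation of the larger array of that family. The deposited log2 values were made with RMA in Affymetrix Expression Console (submitters' processing notes; no version named); the log base was taken from that method and is not stated. Every probe set had a median of 0 over the 4 arrays (100% of probe sets within 1e-06), a centring that no label describes and that removes signal levels, detection and any filter on dim probes. The number of arrays limits the precision.

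Of the probe sets, 64 were controls (left out of the fits), 34945 had 1 gene, 932 several and 9160 none. No chaperonin probe set had several genes. Symbols were checked through Entrez identifiers against RefSeq GRCm38.p6 (34741 matched, 0 changed). Gene values are means of probe sets. The genotype difference was estimated by limma 3.58.1 (lmFit and eBayes, R 4.3.3), without covariates, with 2 residual and 3.04 prior degrees of freedom. The fit was also run on simulated independent genes with variances as limma models them. Such a run cannot show whether the model holds for these arrays. The line numbers differ between genotypes, so nothing pairs the lines. A further fit covered all probe sets. Named genes were all members, up to 4 genes per related list with the smallest p, and the 5 nearest profiles. Outside that rule, Hspa1a, Hspa1b, Dnajb1, Hspb8, Grpel2, Hspa9, Tubb3, Tubb4b, Tubb6 and Bbs12 were named with values seen. Members and lists were chosen with earlier results of these data known. Alternatives were another normalisation, array medians, weights, a robust prior, probe set medians, probe sets by suffix, a range filter and each line left out.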

Additional observations from a re-analysis of the deposited data

How the results depend on the processing

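With each line left out in turn, limma called 0 to 321 genes over the genome, 0 members and 0 member probe sets. The median difference of the 8 CCT subunits then lay between 0.16 (line 5 removed) and 0.27 (line 6 removed). It was 0.24 when the 25% of genes with the smallest range were left out, which removes Tcp1 and Cct2. Under the 8 alternatives that kept all 4 lines, 2 or 3 members were called, Cct6a and Hspd1 among them in each. Cct4 was the additional call (0.59, limma adjusted p = 0.022), made when probe sets ending in _s_at, _x_at or _a_at were left out, which keeps 1430034_at and drops 4 others. Under that alternative the Cct8 difference was -0.039, that of Cct3 was 0.15 (limma adjusted p = 0.353), and Cct2 had no probe set left. With the median of its probe sets, Cct4 differed by 0.083 (limma adjusted p = 0.556). Leaving out 1430034_at was chosen after seeing the data. The Cct2 difference was 0.0050 with the median of its probe sets, and lay between -0.057 and 0.042 with those same lines removed. The cause of these shifts beyond the probe sets or lines removed was not tested. No paired analysis was possible because the genotypes share no line number. Signal over background was not available in centred values, so no limit from dim probes could be set.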
